A study of Arabidopsis thaliana with 8 samples.

Results

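PHLOEM PROTEIN 2 (PP2) genes of Arabidopsis thaliana and 2 genes of the sieve element were compared between flower buds and roots. The set took every gene whose symbol in the RefSeq gene table is PP2-A or PP2-B followed by a number, which gave 15 PP2-A and 13 PP2-B genes, together with SEOR1 (AT3G01680) and APL (AT1G79430). Of these 30 members, 27 had a probe matched to their locus, among 25383 loci with a matched probe in all. PP2-A2 (AT4G19850), PP2-A5 (AT1G65390) and PP2-B12 (AT5G24560) had no matched probe and were not analysed here. SKIP3 (AT2G02350), whose synonyms include PP2-B9, and the pseudogene ATPP2-B3 (AT2G02270) fell outside the rule because of their symbols.

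Sieve elements are the living, enucleate conduits of the phloem, and companion cells beside them supply their proteins. PP2 proteins are lectins first found in phloem exudate, where they move through the sieve tubes. The family shares a carbohydrate-binding domain, but many members carry it behind an F-box, which links a protein to SCF ubiquitin ligases, or behind a TIR domain, known from plant immune receptors. Not every PP2 gene is therefore a phloem gene by function. SEOR1 encodes a subunit of the protein filaments of sieve elements, and APL is a transcription factor needed for phloem identity.

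Total RNA was hybridised to 8 one-colour arrays, 4 of flower buds and 4 of roots. All plants were healthy, of accession Col-0 and 6 weeks old, and were grown in hydroponics, and no treatment is named for either tissue. Each array carried RNA pooled from 8 to 10 plants, so that the spread is that between pools, with the error of single arrays included. Signal is given as a percentage of the array's 75th percentile of signal, so that arrays of different brightness can be set side by side. That percentile was 4149 to 4258 intensity units on the flower bud arrays and 2218 to 3153 on the root arrays. The tissue labels were checked on marker genes. Of these, 6 of 6 floral organ genes were called higher in flower buds, with SEP1 at least 843-fold and SEP2 at least 764-fold higher. All 6 root genes were called lower there, with NRT2:1 at least 10230-fold higher in roots and PHT1;1 at -14.04 ± 0.14 (log2, buds minus roots). All 4 pollen genes were higher in flower buds (GRP17 at least 8311-fold, VGD1 at least 861-fold), as were all 4 photosynthesis genes (GAPB by 11.02 ± 0.20 and PSAD-1 by 9.40 ± 0.15). Over all genes tested, 29.8% were called higher and 25.2% lower. Markers measured in 1 tissue alone, such as the 4 pollen genes, could only be called in that direction. Among markers well above background on all 8 arrays, 2 of 2 floral organ, 2 of 2 root and 3 of 3 photosynthesis genes kept their call, and 0 pollen genes were left. Whole organs were used, so fewer phloem cells and less RNA per phloem cell cannot be told apart in any value below. All arrays lay on 1 slide, the buds in 1 row and the roots in the other, so slide row and tissue cannot be told apart either.

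The test took the genes whose probe the scanner software flagged as well above background on every array of buds, of roots or of both. Differences are log2 signal in buds minus log2 signal in roots, ± SE from limma with 4 arrays per tissue. Calls needed a Benjamini-Hochberg adjusted p below 0.05, over all genes, and at least a 2-fold difference. Of the 27 members with a probe, 24 were tested. Of these, 18 were well above background on all 8 arrays. Another 5 (PP2-A4, PP2-A6, PP2-A7, PP2-A8 and PP2-B6) were not well above background on any flower bud array, and PP2-B5 was so on 3 of 4. These 6 entered the test through the roots alone and could only differ in that direction, so counts are also given without them.

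PP2-A transcripts were lower in flower buds for every member tested, and PP2-B transcripts for most. Of 13 PP2-A genes tested, 13 were called lower in flower buds and 0 higher, and of 9 PP2-B genes 6 were called lower, 0 higher and 3 were not called. Among all 22264 genes tested, 25.2% were called lower in flower buds and 29.8% higher, or 55% in either direction. Among the members well above background on all 8 arrays, 9 of 9 PP2-A and 4 of 7 PP2-B genes were called lower, and 0 of either higher, against 25.2% of 17984 such genes called lower and 21.8% called higher. The median difference (log2) was -3.09 for the 13 PP2-A genes and -1.65 for the 9 PP2-B genes, against 0.12 over all genes tested. Placing the undetected members at their bound could not change these medians, since every bound lay below them. Over the members measured on all 8 arrays the medians were -2.85 for PP2-A and -1.40 for PP2-B, against -0.04 over all such genes. No test was made of PP2-A against PP2-B, since members of a family are not replicates.

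**Figure D1:**
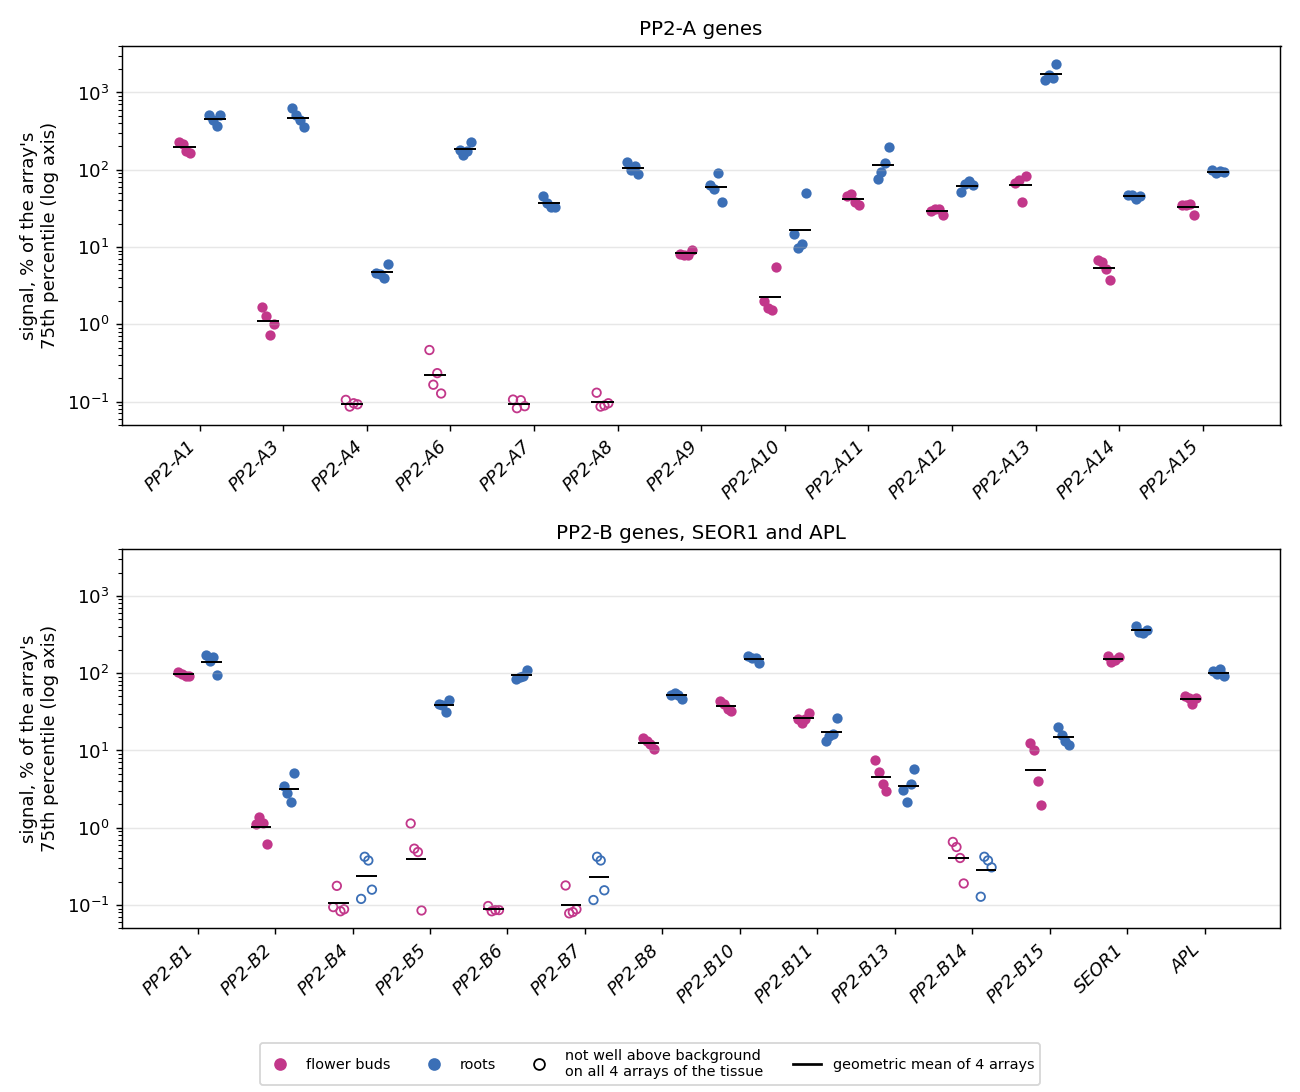
Signal of the 27 members with a probe on each array, as a percentage of the array's 75th percentile (log axis), with flower buds left of roots for each gene. Points are single arrays, bars are geometric means of 4 arrays, and open points mark a tissue in which fewer than 4 arrays were well above background; the clouds of buds and roots are apart for all 13 PP2-A genes and overlap for several PP2-B genes.

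PP2-A1 (AT4G19840) is the lectin of Arabidopsis phloem exudate. Its signal was 226, 216, 176 and 165% of the 75th percentile on flower bud replicates 1 to 4, against 509, 441, 368 and 508% on root replicates 1 to 4. Every root array was above every flower bud array. The difference was -1.22 ± 0.15 (adjusted p = 9.71e-05), or 2.33-fold. A further probe of the gene gave -1.30 ± 0.16.

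PP2-A9, PP2-A10 and PP2-A4 differed by more than PP2-A1. PP2-A9 (AT1G31200) had 8.21, 7.84, 7.78 and 9.26% in flower buds, against 63.7, 56.9, 89.9 and 38.1% in roots, a difference of -2.85 ± 0.24 (adjusted p = 7.68e-06). PP2-A10 (AT1G10155) had 1.99, 1.63, 1.51 and 5.57% in flower buds, against 14.6, 9.77, 10.9 and 50.3% in roots, a difference of -2.87 ± 0.61 (adjusted p = 0.00235). Its large error came with high values in replicate 4 of both tissues; it was -3.30 without flower bud replicate 4 and -2.34 without root replicate 4, and called both times. PP2-A4 (AT1G33920) was dim in roots, at 4.55, 4.49, 3.93 and 6.03%, and had no flower bud array well above background, so that it was at least 23.2-fold higher in roots.

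PP2-A3 (AT2G26820), which joins the PP2 domain to an AIG1-type GTPase domain, had the largest difference among the 18 members well above background on all 8 arrays. It had 1.66, 1.26, 0.735 and 1.01% in flower buds, against 622, 505, 436 and 359% in roots. The difference was -8.72 ± 0.27 (adjusted p = 2.02e-08), or 422-fold, and -7.37 with normexp background correction.

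The TIR-domain genes PP2-A8 (AT5G45070), PP2-A6 (AT5G45080) and PP2-A7 (AT5G45090) lie close together on chromosome 5, in that order, with no other protein-coding gene between them. All were measured on every root array, and none had a flower bud array well above background. PP2-A6 had 180, 154, 177 and 228% in roots and was at least 725-fold higher there. PP2-A8, with 127, 98.3, 113 and 86.8% in roots, was at least 520-fold higher, and PP2-A7, with 45.9, 37.2, 32.8 and 33.3%, at least 183-fold. The bounds rest on the lowest signal well above background and on the main background subtraction. As log2 differences they were -9.50 for PP2-A6, -9.02 for PP2-A8, -7.52 for PP2-A7 and -4.54 for PP2-A4. Under normexp the fitted differences were smaller than these bounds, at -6.59, -5.99, -4.53 and -2.28 in that order, and all were still called.

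The 5 F-box members of the PP2-A group, PP2-A11 to PP2-A15, spanned a wide range of differences. PP2-A13 (AT3G61060) had 68.2, 73.0, 38.6 and 83.4% in flower buds, against 1442, 1679, 1516 and 2348% in roots. It differed by -4.76 ± 0.26 (adjusted p = 5.98e-07), or 27.1-fold, and its other probe gave -4.92 ± 0.28. PP2-A14 (AT5G52120) had 6.74, 6.32, 5.14 and 3.76% in flower buds, against 47.8, 47.5, 42.1 and 45.2% in roots, and differed by -3.09 ± 0.18 (adjusted p = 8.81e-07). The other F-box members of this group differed by less, all with buds and roots apart.

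PP2-A15 (AT3G53000) had 35.0, 34.6, 36.2 and 26.2% in flower buds, against 98.0, 91.2, 97.0 and 93.0% in roots (-1.53 ± 0.12, adjusted p = 4.58e-06). PP2-A12 (AT1G12710) had 28.9, 31.0, 30.6 and 26.1% in flower buds, against 50.9, 65.2, 70.4 and 63.8% in roots (-1.09 ± 0.12, adjusted p = 4.70e-05). Its difference was just past 2-fold, and -0.94 under normexp, where it was not called. PP2-A11 (AT1G63090) had 45.6, 49.1, 38.3 and 34.5% in flower buds, against 77.0, 92.2, 123 and 197% in roots. The probe chosen for PP2-A11 gave -1.47 ± 0.28 (adjusted p = 0.00142) and its other probe -3.11 ± 0.21, so the direction was shared by both probes and the size was not.

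**Figure D2:**
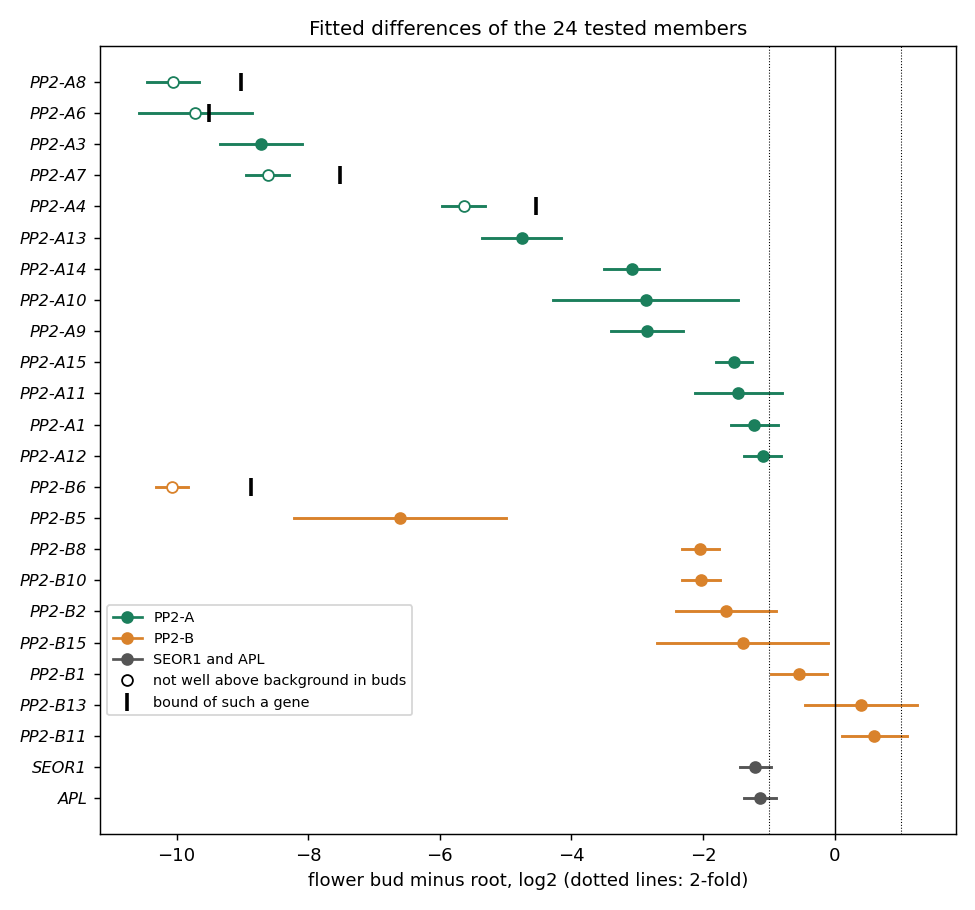
Fitted difference (log2, flower buds minus roots) of the 24 members tested, by subfamily; lines are 95% confidence intervals. Open points are members not well above background in flower buds, whose bound is the black tick; all 13 PP2-A genes lie left of 0, whereas PP2-B11 and PP2-B13 lie right of it and were not called.

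PP2-B genes code for F-box proteins, and 8 of the 13 lie in a run on chromosome 2, interleaved with MEE66 (AT2G02240), SKIP3, AT2G02290 and pseudogenes. Of the 6 tested members of this run, 5 were called lower in flower buds, with a median of -2.04, against 25.2% of all genes tested. Without PP2-B5 and PP2-B6, which entered the test through the roots alone, it was 3 of 4 (PP2-B2, PP2-B8 and PP2-B10). AT2G02290, in the middle of the run, was called lower as well, at -1.59 ± 0.17. The differences were unequal between neighbours. PP2-B6 (AT2G02310) had 84.4, 90.3, 93.2 and 110% in roots and no flower bud array well above background, so that it was at least 466-fold higher in roots. Its fitted difference was -10.07, and -5.94 under normexp, smaller than the bound of -8.86 (log2). Next to it, PP2-B5 (AT2G02300) had 1.14, 0.536, 0.485 and 0.085% in flower buds, against 40.5, 38.7, 31.9 and 45.1% in roots. PP2-B5 differed by -6.60 ± 0.70 (adjusted p = 3.36e-05), by -5.86 without flower bud replicate 4, which was the array not well above background, and by -4.32 under normexp. On the other side of PP2-B6, PP2-B7 (AT2G02320) had none of the 8 arrays well above background.

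Further along the run, PP2-B8 and PP2-B10 had nearly the same difference. PP2-B8 (AT2G02340) had 14.7, 13.4, 12.3 and 10.4% in flower buds, against 52.7, 55.2, 52.8 and 47.0% in roots (-2.04 ± 0.12, adjusted p = 1.01e-06). PP2-B10 (AT2G02360) had 43.9, 39.8, 34.4 and 32.8% in flower buds, against 166, 155, 159 and 134% in roots (-2.03 ± 0.12, adjusted p = 1.03e-06), and its other probes gave -1.76 ± 0.19 and -2.09 ± 0.12. SKIP3, which lies between these genes, was not called, at -0.75 ± 0.17 (adjusted p = 0.00327).

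At the start of the run the differences were smaller. PP2-B2 (AT2G02250) was dim, with 1.13, 1.39, 1.15 and 0.611% in flower buds, against 3.50, 2.79, 2.13 and 5.11% in roots (-1.65 ± 0.33, adjusted p = 0.00167). PP2-B1 (AT2G02230) had 105, 98.0, 92.2 and 92.8% in flower buds, against 173, 145, 164 and 95.6% in roots, where replicate 4 fell inside the range of the buds. PP2-B1 was not called, at -0.54 ± 0.19 (adjusted p = 0.0252), under 2-fold. MEE66 between them was not called either, at 0.73 ± 0.23. PP2-B4 (AT2G02280) had no array well above background. PP2-B genes of the run are alike in sequence and the probe sequences were not examined here, so whether a probe also binds a neighbour's transcript was not tested.

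**Figure D3:**
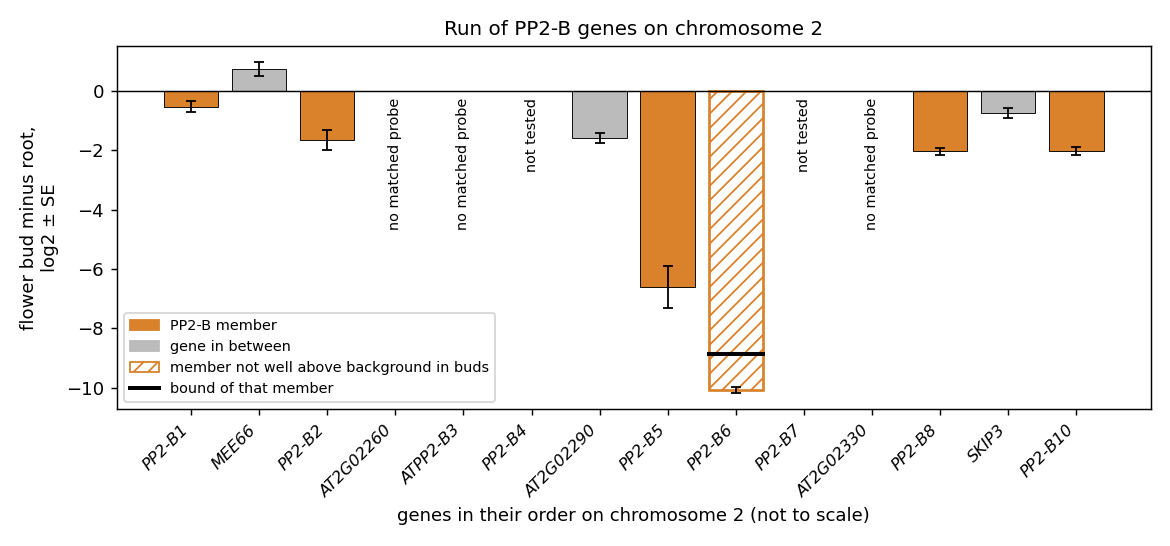
Difference (log2, flower buds minus roots; bars, ± SE, 4 arrays per tissue) of the genes in the run of PP2-B genes, in their order on chromosome 2. PP2-B6, hatched, was not well above background in flower buds and its bound is the black line; PP2-B5 and PP2-B6 have the largest differences of the genes drawn, and PP2-B4 and PP2-B7 were not tested.

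Of the 5 PP2-B genes outside the run, 3 were tested, and 1 of them, PP2-B15, was called lower in flower buds. PP2-B11 (AT1G80110), an F-box protein known from abscisic acid signalling, had 25.5, 22.6, 25.8 and 30.8% in flower buds, against 13.2, 15.3, 16.3 and 26.1% in roots. Root replicate 4 lay within the range of the buds, and the gene was not called, at 0.60 ± 0.21 (95% interval 0.11 to 1.09, adjusted p = 0.0276), because the difference was under 2-fold. PP2-B13 (AT1G56240) had 7.45, 5.21, 3.64 and 2.99% in flower buds, against 3.08, 2.14, 3.72 and 5.77% in roots, and was not called, at 0.40 ± 0.37 (95% interval -0.45 to 1.24, adjusted p = 0.341); another of its probes gave -0.27 ± 0.36. Its neighbour PP2-B14 (AT1G56250), also named VBF for binding the protein VIP1, had 2 of 4 bud arrays and 0 of 4 root arrays well above background and was not tested.

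PP2-B15 (AT1G09155) was the least secure call. It had 12.6, 10.1, 4.04 and 1.96% in flower buds, against 19.9, 15.8, 13.1 and 11.7% in roots, so that the highest flower bud array lay above the lowest root array. It was called at -1.40 ± 0.56 (adjusted p = 0.0465). The call was lost when any 1 root array was left out, and without flower bud replicate 3 or 4, where the difference lay between -1.51 and -0.89 with adjusted p-values of 0.0618 to 0.109. Its flower bud arrays ranked as replicates 1, 2, 3 and 4 from highest to lowest, as did those of 7 of the 24 tested members in all (PP2-A1, PP2-A14, PP2-B5, PP2-B8, PP2-B10 and PP2-B13 besides), of 2 of the 4 pollen genes (VGD1 and PPME1) and of 10.4% of all genes tested. The 4 pollen genes, VGD1, PPME1, HA9 and GRP17, had median deviations from the flower bud mean of 0.95, 0.33, -0.34 and -0.75 on replicates 1 to 4 (log2), and their part in the spread of PP2-B15 was not tested. The 13 PP2-A genes and the floral organ, root and xylem lists had their median deviations in the same order. So did the 9 PP2-B genes, at 0.22, 0.09, -0.04 and -0.28. None of the 4 pollen genes had a root array well above background.

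SEOR1 and APL were lower in flower buds by about the amount seen for PP2-A1. SEOR1 had 168, 139, 149 and 163% in flower buds, against 403, 337, 333 and 362% in roots, and differed by -1.21 ± 0.10 (adjusted p = 8.35e-06). APL had 50.4, 47.2, 40.2 and 48.0% in flower buds, against 107, 98.7, 112 and 91.7% in roots, and differed by -1.14 ± 0.11 (adjusted p = 1.61e-05). Buds and roots were apart for both genes. The other probes of APL gave -1.24 ± 0.15 and -0.89 ± 0.11, the last under 2-fold, and the chosen probe gave -0.98 under normexp, where APL was not called. SEOa (AT3G01670), the partner of SEOR1 in the filaments and not a member, was lower by much the same amount, at -1.21 ± 0.12.

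Scaling on 8 reference genes, which moved the median of all genes by 0.55, took the differences of PP2-A1, PP2-A11, PP2-A12, PP2-A15, SEOR1, APL and PP2-B15 below the call, at -0.67, -0.92, -0.55, -0.99, -0.66, -0.59 and -0.85. The same scaling brought PP2-B11 to 1.15, called higher in flower buds. The reference genes themselves had a median difference of -0.54, with 1 of 8 called lower (UBC9, -1.32 ± 0.08) and 0 higher. Under that scaling 9 of 13 PP2-A genes were still called lower in flower buds and 0 higher. Among all called genes 68.4% were higher in flower buds, against 54.2% with the 75th percentile. That share is of called genes, whereas 9 of 13 is of genes tested.

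Whether other members differed by more than a sieve element gene was asked by subtracting the SEOR1 signal from every gene within each array and refitting the whole table, a comparison chosen after seeing the data. Relative to SEOR1, 9 of 13 PP2-A genes and 2 of 9 PP2-B genes were called lower in flower buds, against 14.1% of all genes. Without the members that entered the test through the roots alone, it was 5 of 9 PP2-A and 0 of 7 PP2-B genes, against 11.7% of the genes measured on every array. The PP2-A genes called lower were PP2-A3, PP2-A4, PP2-A6 to PP2-A10, PP2-A13 and PP2-A14. Among those measured in both tissues the values lay between -1.64 (PP2-A9) and -7.51 (PP2-A3). PP2-A1 differed from SEOR1 by -0.01 (95% interval -0.37 to 0.35), PP2-A12 by 0.12 (-0.32 to 0.55) and APL by 0.07 (-0.24 to 0.38). PP2-B5 and PP2-B6 were called lower than SEOR1, whereas PP2-B11 and PP2-B13 were called higher, at 1.82 ± 0.22 (adjusted p = 4.41e-05) and 1.61 ± 0.36 (adjusted p = 0.00215), against 58.4% of all genes called higher. This ratio shows unequal change between genes and not which of them changed.

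Genes of sieve element differentiation and structure were mostly not called. Of 24 such genes, 5 (20.8%) were called lower in flower buds, 0 higher and 19 were not called, with a median difference of -0.59. Of all genes tested, 25.2% were called lower and 29.8% higher. The called genes with the largest differences were AT3G52490 at -1.71 ± 0.10 and the transcription factor gene NAC020 at -1.49 ± 0.13. The other called genes, named after their values were seen, were SUS5, a sucrose synthase of sieve elements, at -1.40 ± 0.13, CalS7, the callose synthase of sieve plates, at -1.11 ± 0.12, and SEOa. With scaling on reference genes 1 gene was called lower and 5 higher, and with scaling on the array median 8 were called lower.

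Genes of companion cells and phloem loading went in both directions, 6 of 15 higher in flower buds, 6 lower and 3 not called. That was 40% in each direction, against 29.8% of all genes tested called higher and 25.2% lower. NRT1.9, a nitrate transporter of companion cells, differed by -5.00 ± 0.14 and the amino acid permease gene AAP2 by -3.55 ± 0.31. The potassium channel gene KT2/3 (AKT2) was higher in flower buds by 7.16 ± 0.27, and the nitrate transporter gene NRT1.7 by 6.27 ± 0.16. SUC2, the main sucrose carrier of phloem loading, was not called, at -0.64 ± 0.16, nor were SUT2 and SUT4, at -0.59 ± 0.16 and -0.63 ± 0.16.

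Xylem genes were lower in flower buds for 8 of 12 members, with 0 higher and a median difference of -1.22. Over all genes tested, 25.2% were called lower and 29.8% higher. The xylem protease gene XCP1 and the secondary wall cellulose synthase gene IRX3 (CESA7) led them, at -3.06 ± 0.15 and -1.72 ± 0.09, and NAC101, MYB46, MYB83 and LAC17 were not called, at -0.50, -0.67, -0.46 and -0.95. With scaling on reference genes 3 of the 12 were called lower and 0 higher, whereas 68.4% of all called genes were higher in flower buds under that scaling. Of 12 procambium and cambium genes 1 was called lower (HB-8, -1.15 ± 0.13) and 2 higher (MP, 2.12 ± 0.12, and CLE44, 1.62 ± 0.22), with a median of -0.02.

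SCF partners of F-box proteins were mostly not called, 7 of 9. Of the uncalled genes, the adaptor gene SKP1 (ASK1) differed by -0.56 ± 0.09 and the scaffold gene CUL1 by -0.57 ± 0.08; they are named for their roles, after their values were seen. SK11 and SK12 were called higher in flower buds, at least 7.38-fold and 7.16-fold, and were not called under normexp. These counts stand beside the 25.2% of all genes called lower and 29.8% called higher.

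**Figure D4:**
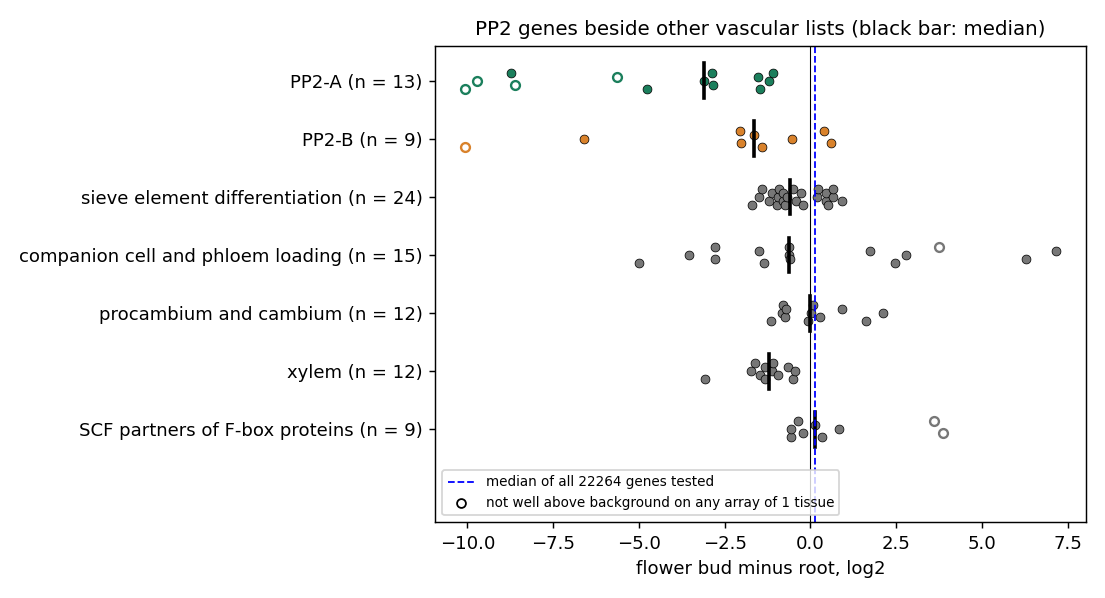
Differences (log2, flower buds minus roots) of the tested PP2-A and PP2-B genes above those of the vascular lists and of the SCF partners; points are genes, open ones not well above background in 1 tissue, and black bars are medians. The median of PP2-A, at -3.09, is the lowest of the lists drawn, and sieve element differentiation genes lie between -1.71 and 0.92.

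The spread between arrays of 1 tissue was unequal between members. The SD (log2) in flower buds was 0.22 for PP2-A1, 0.87 for PP2-A10, 1.24 for PP2-B15 and 1.58 for PP2-B5. A median deviation over several genes shows a shift they share and not this spread, since opposite signs cancel. For the 13 PP2-A genes it was 0.15, 0.08, -0.08 and -0.14 on flower bud replicates 1 to 4. On root replicates 1 to 4 it was 0.05, -0.06, -0.11 and 0.04. For the 9 PP2-B genes it was 0.22, 0.09, -0.04 and -0.28 in flower buds and 0.06, -0.003, -0.01 and 0.22 in roots. Groups of 4 arrays did not overlap for 13 of 13 PP2-A, 5 of 9 PP2-B and both sieve element genes, against 78.8% of all genes tested. These counts include PP2-A4, PP2-A6, PP2-A7, PP2-A8, PP2-B5 and PP2-B6, whose entry through the roots alone favoured a lack of overlap. Among the PP2-B genes measured on every array, PP2-B2, PP2-B8 and PP2-B10 did not overlap, whereas PP2-B1, PP2-B11, PP2-B13 and PP2-B15 did. Among the 24 tested members, flower bud replicate 1 was the highest flower bud array for 16 and flower bud replicate 4 the lowest for 12. Root replicate 4 was the highest root array for 10 members, among them PP2-A10, PP2-A13 and PP2-B11, and the lowest for 8, among them PP2-A9 and PP2-B1. The replicate numbers of both tissues also stand for columns of the slide, and a fit with the number as a block changed no member's call.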

How the data were processed

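The spot intensities were deposited as scanner output of Agilent Feature Extraction 10.10.1.1, which, per the file headers, subtracted background within each array and scaled nothing between arrays. Repeated and incomplete lines after the last spot of 6 files were dropped. Outlier spots (6 to 191 per array) were left out, no spot was saturated, and spots of a probe were averaged. Signals were taken as log2 minus the array's 75th percentile. Of 43603 probes, 34285 matched 1 locus by accession in a RefSeq gene table (TAIR10.1, used for names and gene order only), and the probe with the highest mean signal stood for each gene. Genes were fitted together with limma 3.58.1 (lmFit and eBayes, R 4.3.3) with tissue as the only factor. That fit was tested on simulated data.

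A bound sets the brighter tissue's mean log2 signal against the dimmer tissue's, in which each array contributes the higher of the probe's signal and the lowest signal flagged well above background (0.184 to 0.943% of the 75th percentile). That lowest signal is the dimmest flagged probe of the array and not a limit of detection. No test was made of a bound, and under normexp the differences of the undetected members were smaller than their bounds. The standard errors rest on the number of arrays and on each gene's spread between pools, with the error of single arrays included. Genes were fitted together, so each standard error also draws on the spread of other genes.

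The members and gene lists were chosen with earlier results of these data known, and the comparison with SEOR1 after seeing the data. Every member is named, with the called genes of largest difference from each other list. Other settings tried were normexp (offset 50) on median signals in place of the mean signals first planned, scaling by array median, reference genes or quantiles, other filters and probe choices, the replicate block, no minimum fold, and leaving out each array. The deposited log2 value table served as another setting. By comparison with the scanner files (correlation 1 on every array) it holds values scaled to the 75th percentile and centred on each probe's median. Its column medians were -0.01, -0.05, -0.04 and -0.06 for flower buds and -0.01, 0.09, 0.09 and 0.03 for roots.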

Additional observations from a re-analysis of the deposited data

Results flagged for a closer look

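Flower bud replicate 4 stood apart for PP2-A15. Its signal was 26.2% of the 75th percentile, against 34.6 to 36.2% on the other flower bud arrays, and its gap to the nearest of them was 0.859 of the whole range on the log2 scale, above the 95% critical value of Dixon's test for 4 arrays. Of 48 sets of 4 arrays examined (24 members in 2 tissues) this was the only one past that value, and chance flags about 1 in 20.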

How the results depend on the processing

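Across 448 combinations of a tested member and another setting, 429 kept the call, 0 reversed a called direction, 16 lost a call and 3 gained one. The sign turned in 3, all of uncalled genes, PP2-B1 with reference gene scaling (0.01) and PP2-B13 with normexp (-0.11) and with the mean over its probes (-0.03). The losses fell on PP2-A1, PP2-A11, PP2-A12, PP2-A15, PP2-B15, SEOR1 and APL, 7 of them with reference gene scaling, 2 with normexp and the others on PP2-B15. The number of PP2-B genes called higher in flower buds became 1 (PP2-B11) with reference gene scaling, and 1 with no minimum fold, where PP2-B1 was called lower. With no minimum fold 8512 genes were called lower in flower buds, and 3929 were called higher when the fit held just the 17984 genes measured on every array. The PP2-A median difference, -3.09, was -2.75 with normexp, -2.54 with reference genes, -3.27 with quantile normalization and -2.85 over the 9 members of the group measured on every array; leaving out 1 array gave -3.30 to -3.07. The PP2-B median, -1.65, was -1.32, -1.10, -2.05 and, over 7 genes, -1.40 under those settings, and -1.85 to -1.40 when 1 array was left out. Normexp moved the median of all genes by -0.13 and array median scaling by -0.13. With the replicate block 13 PP2-A and 6 PP2-B genes were called lower, 6604 of all genes higher and 5606 lower, and no member's call changed. Same-numbered arrays correlated at -0.27, 0.05, -0.01 and 0.10 in their deviations from the tissue means, and 2 of 8 arrays correlated best with their own number, so the numbers were not taken as pairs. The cause of the changes was not tested. Dim probes set a limit: PP2-B4, PP2-B7 and PP2-B14 were not tested, and the differences of 5 members are bounds.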
